A study of Mus musculus with 4 samples.

Results

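The potassium channel genes are the genes that build the pores and accessory subunits of channels selective for potassium ions, together with a few that share their naming. They were chosen by name, as every gene whose name in the array annotation begins with Kcn followed by a lower-case letter, plus Abcc8 and Abcc9, which encode the sulfonylurea receptors. The rule found 97 genes of 22393 on the array, each represented by its brightest probe over the 4 arrays. Kcnq1ot1, a long noncoding RNA, and Kcnrg, which encodes a regulator, meet the rule by name without being channel subunits. The rule used names alone, and measured levels served only to pick the probe of each gene. The rule was, however, set with earlier results of these data known.

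Islets came from C57BL/6 mice aged 24 weeks and were taken from wild-type males (male WT), from transgenic males labelled diabetic (male Tg), from transgenic males profiled 6 weeks after an E2 implant (male Tg E2), and from transgenic females (female Tg). Collagenase-digested pancreas was separated on gradients and islets were then handpicked. The labels used here name neither the transgene nor its promoter, and do not give the number of mice per array or whether the implanted males were diabetic. Each group was 1 array, so no difference below has a replicate check and no p-value is given. The female group carries no diabetes label, so between female and male Tg the sex and that label cannot be told apart. Nor can the transgene and the diabetes label between male Tg and male WT, or sex and transgene between female Tg and male WT.

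In the beta cell, ATP made from glucose closes the KATP channel, a complex of a Kir6 pore with a sulfonylurea receptor, and the cell depolarises and releases insulin. Voltage-gated and calcium-activated potassium channels then repolarise the membrane between action potentials, while two-pore channels carry a background leak. In epithelia, muscle, glia and blood cells other members of the same families set the resting potential or recycle potassium.

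A level here is the log2 processed intensity of a probe minus the 75th percentile of its array, so levels were compared only between arrays for the same probe. A gene was measured in a comparison when its probe was well above background on both arrays, and the limit for a difference was 2-fold, or 1 on the log2 scale. The error printed as SE is that of the scanner software's error model, which covers the measurement of a spot and not the spread between mice. For the measured potassium channel genes it ranged from 0.204 to 0.395 log2 over the first 3 comparisons. On each of the 4 arrays 59 to 64 of the 97 genes were well above background. Of the 97 genes, 54 (55.7%) were well above background on all 4 arrays and 29 (29.9%) on none, against 62.1% and 26.7% of all genes.

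All 12 beta cell markers were well above background on all 4 arrays, as were all 14 acinar, all 5 delta cell and 8 of 9 alpha cell markers. From male WT to male Tg, the median beta cell marker differed by -1.73 log2, with 8 of 12 at least 2-fold lower. Ins1 (0.65), Ins2 (0.71) and Iapp (0.28) went the other way, inside the limit. The median alpha cell marker differed by 1.21, with 5 of 8 at least 2-fold higher, and the median delta cell marker by 1.24, with 3 of 5. The median acinar marker differed by 4.66, with 13 of 14 at least 2-fold higher. Pericyte and stellate cell markers were higher by a median of 2.40, with 10 of 12 at least 2-fold higher, and lymphocyte markers by 3.27. In the pericyte and stellate cell list, Rgs5 (-0.20) and Cspg4 (0.08) were within 2-fold. From male Tg to male Tg E2, the medians were 0.61 for beta cell, -0.69 for acinar, -0.21 for pericyte and stellate cell, -1.83 for lymphocyte, and -3.50 for erythrocyte and platelet markers. From male Tg to female Tg, they were 0.96 for beta cell and -4.15 for acinar markers. Ins1, Ins2 and Iapp were lower than male Tg on the male Tg E2 and female Tg arrays, inside the limit. The part of these markers' cells in the differences below was not tested, and fewer cells of a type cannot be told apart from less RNA per cell. Between female Tg and male WT, all 14 acinar markers were within 2-fold, with a median of 0.16. There 8 of 10 lymphocyte markers were at least 2-fold higher in female Tg, where 7.61% of all measured genes were.

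Between male Tg and male WT, 56 of the 97 genes were measured. Of these, 18 were at least 2-fold higher in male Tg (32.1%), where 15.5% of all 14402 measured genes were higher, and 9 were at least 2-fold lower (16.1%), where 9.05% of all genes were lower. Either way 24.5% of all measured genes passed the limit. The potassium channel genes had a median difference of 0.20, against -0.22 for all genes. Another scaling moves this balance. With each array's median in place of its 75th percentile the median of all genes was -0.56 and the split was 13 higher and 13 lower, 23.2% each, where 12.0% of all genes were higher and 21.5% lower, so the share lower was then near that of all genes. With the 75th percentile of the probes detected on all 4 arrays, the all-gene median was -0.02 and the split was 20 higher and 5 lower (35.7% and 8.93%), where 2593 of all 14402 genes were higher and 786 lower. The 20 and 5 were also the counts relative to the all-gene median. Among genes above the median level, 5 of 32 were higher (15.6%), where 12.2% of all genes were. There 8 were lower (25.0%), where 9.25% of all genes were.

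In male Tg E2 over male Tg, 59 genes were measured and 4 were at least 2-fold higher (6.78%), where 2.61% of all 14637 measured genes were, and 4 were at least 2-fold lower (6.78%), where 7.92% of all genes were. All genes passed the limit in 10.5% of cases either way. The share of lower genes was thus near the background of the arrays. With median scaling the split was 7 higher and 4 lower. In female Tg over male Tg, 7 of 54 measured genes were higher (13.0%) against 3.63% of all 14227 measured genes, and 5 were lower (9.26%) against 8.43%, with 12.1% of all genes past the limit either way. These last 2 comparisons and the first share the male Tg array, so their values are set side by side below and are not independent of each other.

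Against male WT, the male Tg E2 array had 17 of 59 measured genes past 2-fold on the higher side (28.8%), where 8.76% of all genes were, and 3 lower (5.08%), where 2.68% were, with 11.4% of all genes past the limit either way. The female Tg array had 15 of 59 higher than male WT (25.4%) against 7.61% of all genes, and 4 lower (6.78%) against 3.52%, with 11.1% either way.

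**Figure D1:**
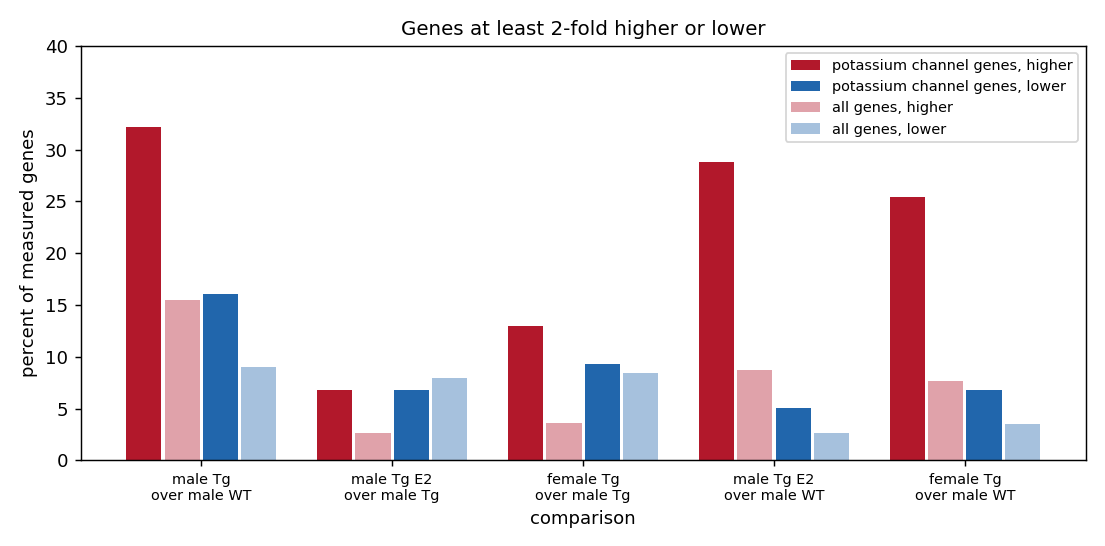
Percent of measured genes at least 2-fold higher (red) or lower (blue) in each of 5 comparisons between single arrays, for the potassium channel genes (dark) and for all genes (pale). In male Tg over male WT the potassium channel genes stand at 32.1% higher and 16.1% lower, against 15.5% and 9.05% of all genes.

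The 4 KATP channel genes differed in direction. Kcnj11, which encodes the Kir6.2 pore of the beta cell channel, stood at a level of 0.50 in male WT, -0.69 in male Tg, 0.14 in male Tg E2 and 0.46 in female Tg. It was lowest on the male Tg array, with a difference of -1.20 from male WT (SE 0.21), and 0.83 and 1.15 higher than male Tg on the male Tg E2 and female Tg arrays. A second, dimmer Kcnj11 probe gave -0.46 between male Tg and male WT, inside the limit. Abcc8, which encodes SUR1, the partner of Kir6.2, had levels of 8.35, 7.74, 8.10 and 8.34 in the same order of arrays. Its male Tg level was also the lowest, by -0.62 from male WT, inside the 2-fold limit, and a second probe gave -0.68.

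Kcnj11 had a second measured probe, which ends on the gene's stop codon and is shown because both probes did not give the same size of difference. It lies at chr7:53354095-53354154 on the minus strand (mm9), and the brighter probe at chr7:53353119-53353178 on the same strand. The sequence in the array annotation is an open frame, and the capitals mark the closing stop codon.
Kcnj11 coding-end probe: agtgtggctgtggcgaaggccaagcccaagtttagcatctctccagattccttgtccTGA
This probe had levels of -2.31, -2.76, -2.66 and -1.69 in the same order of arrays. Its male Tg level differed by -0.46 from male WT, and the male Tg E2 and female Tg levels by 0.11 and 1.08 from male Tg, so it shared the sign of the brighter probe in all 3 and its side of the 2-fold limit in the last 2. The difference of Kcnj11 between male Tg and male WT ranged from -1.54 to -0.83 over the alternatives and lost its call under 4 of them.

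The vascular and muscle forms of the channel went the other way. Abcc9, which encodes SUR2, had levels of -1.64, 0.04, -0.59 and -0.63. All 3 transgenic arrays lay above male WT, male Tg by 3.20-fold (difference 1.68, SE 0.22), male Tg E2 by 2.07-fold and female Tg by 2.01-fold. Kcnj8, which encodes the Kir6.1 pore found with SUR2 in vascular smooth muscle and pericytes, was well above background only on the male Tg and male Tg E2 arrays, at -3.03 and -3.01. It was at least 2.64-fold higher in male Tg than in male WT, where the bound sets the lowest level that was well above background on the dim array in place of the undetected value. The 12 pericyte and stellate cell markers, all of them well above background on every array, had median levels of -0.65 in male WT, 1.80 in male Tg, 1.92 in male Tg E2 and 0.73 in female Tg. The list is mixed: from male WT to male Tg the collagen genes Col1a1 and Col3a1 differed by 4.51 and 4.23. The pericyte genes Pdgfrb, Rgs5 and Cspg4 differed by 1.05, -0.20 and 0.08.

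Among the other 13 inward rectifier genes, 6 were measured in male Tg over male WT, of which 3 were higher and 1 was lower. In that comparison 15.5% of all measured genes were higher and 9.05% lower, the shares to set beside this and later class counts. Kcnj12, which encodes the strong inward rectifier Kir2.2, had levels of 0.09 in male WT, -2.81 in male Tg, -3.54 in male Tg E2 and -2.13 in female Tg. Male WT stood alone at the top, 7.48-fold above male Tg (difference -2.90, SE 0.27), 12.4-fold above male Tg E2 and 4.67-fold above female Tg. The implanted array was thus no nearer to male WT for this gene. The male Tg E2 level of Kcnj12 was close to the lowest level well above background on that array (-3.91). The difference of -2.90 ranged from -3.24 to -1.58 over the alternatives. Kcnj10, which encodes the glial Kir4.1, Kcnj15, which encodes Kir4.2, and Kcnj4, which encodes Kir2.3, were 1.20, 1.16 and 1.02 higher in male Tg, and each of the 3 calls was lost under median scaling and under normexp background correction. Kcnj15 was not well above background on the female Tg array and was there at least 2.11-fold below male Tg.

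Kcnj3, Kcnj5, Kcnj6 and Kcnj9 encode the G protein-gated inward rectifiers through which somatostatin and adrenaline hyperpolarise endocrine cells. Kcnj6 had levels of -3.40, -3.34, -3.05 and -2.76, no 2 of them 2-fold apart. Its probe was spotted 10 times, and the SD between its usable spots was 0.062 to 0.360 log2. Kcnj5 was well above background in male WT and female Tg only, at -2.98 and -3.18, and Kcnj3 and Kcnj9 on no array.

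Of the 14 two-pore genes, 9 were measured in male Tg over male WT. Kcnk10, Kcnk5 and Kcnk6, which encode the leak channels TREK2, TASK2 and TWIK2, were at least 2-fold higher in male Tg and none was lower. Kcnk10 had levels of -3.03 in male WT, -0.84 in male Tg, -2.16 in male Tg E2 and -2.70 in female Tg. Only male Tg stood apart, 2.19 above male WT (SE 0.25), with male Tg E2 2.50-fold and female Tg 3.64-fold below it. Kcnk5 had levels of -3.41, -1.67, -3.18 and -3.18, the same shape, with a difference of 1.74 from male WT (SE 0.26) and -1.51 from male Tg on each of the other transgenic arrays. Kcnk6 had levels of -1.34, 0.60, 0.31 and -0.10, and here male Tg E2 and female Tg stayed 3.14-fold and 2.36-fold above male WT.

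Kcnk16 encodes TALK1, a two-pore channel of the beta cell. Its levels were 0.75, 0.06, 0.64 and 1.42, highest in female Tg, where it was 2.56-fold above male Tg (difference 1.35, SE 0.21), while male Tg was within 2-fold of male WT at -0.68. Kcnk12 was 1.03 higher in female Tg than in male Tg, a call that normexp correction took to 0.83. Kcnk3, which encodes the acid-sensitive TASK1, had levels of -0.43, 0.49, 1.10 and 1.16 and was 2.91-fold and 3.02-fold higher than male WT on the male Tg E2 and female Tg arrays. Kcnk1, which encodes TWIK1, stayed within 2-fold in all 5 comparisons, at levels from 0.98 to 1.83, and Kcnk2 was well above background on no array.

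Kcnk9, which encodes the leak channel TASK3, depends on which probe is read. Both probe sequences are shown because one was well above background on every array and the other on none. The probe that the annotation names Kcnk9 lies at chr15:72342761-72342820 on the minus strand (mm9). A probe named A930009L07Rik, which the RefSeq table lists as a synonym of Kcnk9, lies at chr15:72338278-72338337 on the same strand, 4423 bases away. The first 30 bases of each are given, and the capitals mark 4 ATG repeats at the start of the first.
Kcnk9 probe: ATGATGATGATGtcgtcgataatgttgttg
A930009L07Rik probe: attttgcacaagatgaggacctttggtttg
The probe named Kcnk9 was not well above background on any array, with levels of -4.56, -5.47, -4.23 and -5.52. The A930009L07Rik probe was well above background on all 4, with intensities of 83.6 in male WT, 38.8 in male Tg, 1134 in male Tg E2 and 273 in female Tg and levels of -2.30, -2.57, 1.75 and -0.11. Male WT and male Tg were within 2-fold of each other at -0.27. The male Tg E2 array was 19.9-fold above male Tg (difference 4.32, SE 0.25), the highest increase among all 14637 genes measured in that comparison, and female Tg was 5.50-fold above male Tg (difference 2.46, SE 0.25). Against male WT the same 2 arrays were 4.04 and 2.19 higher. Counting this probe as Kcnk9 would bring the genes at least 2-fold above male Tg to 5 in male Tg E2 and to 8 in female Tg. Which transcript the A930009L07Rik probe reports was not tested, and the annotation used here does not place either probe in an exon.

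**Figure D2:**
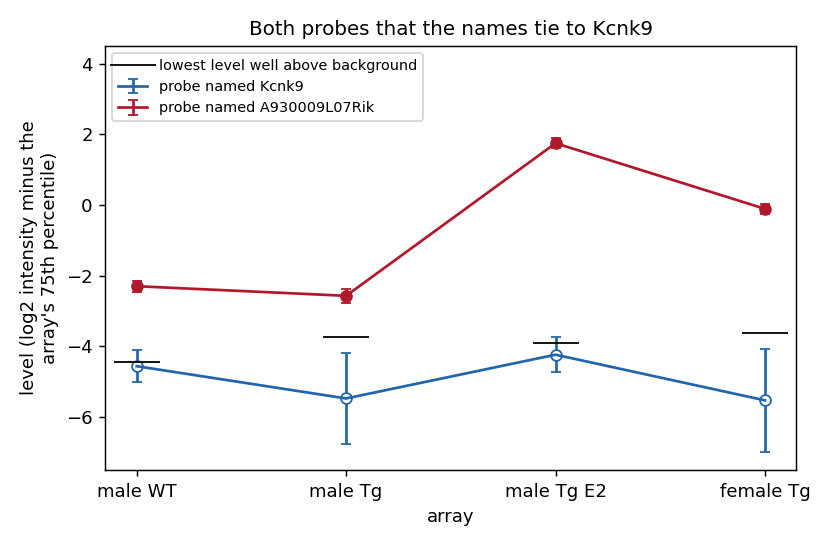
Level (log2 intensity minus the array's 75th percentile) of the probe named Kcnk9 (blue, open: not well above background) and of the probe named A930009L07Rik (red, filled: well above background) on each array, with the SE of the scanner software's error model and black bars at the lowest level well above background. The red probe stands at -2.30 and -2.57 in male WT and male Tg and at 1.75 and -0.11 in male Tg E2 and female Tg, while the blue probe is not well above background on any array.

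Of the 17 voltage-gated genes of the Kv1 to Kv4 families, 12 were measured in male Tg over male WT, of which 5 were higher and 1 was lower. Kcna1, which encodes the axonal channel Kv1.1, had levels of -4.05, -0.10, -0.71 and -0.55. All 3 transgenic arrays were above male WT, male Tg by 15.5-fold (difference 3.95, SE 0.32), male Tg E2 by 10.1-fold and female Tg by 11.3-fold. The male WT level was close to the lowest level well above background on that array (-4.43). The difference of 3.95 ranged from 2.11 to 4.15 over the alternatives. Kcnd3, which encodes the transient A-type channel Kv4.3, had levels of -3.01, -0.21, -0.11 and -1.54. It was 2.80 higher in male Tg than in male WT (SE 0.25), within 2-fold of male Tg in male Tg E2 at 0.10, and 2.52-fold lower in female Tg than in male Tg. Kcnc4, which encodes Kv3.4, had levels of -3.61, -1.51, -1.03 and -1.31 and was 4.30-fold higher in male Tg than in male WT.

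Kcna5 and Kcnc2 were 1.13 and 1.01 higher in male Tg than in male WT, and both calls were lost under median scaling, quantile normalization and normexp correction. Kcnd1, Kcna4 and Kcnc1 stayed within 2-fold in all 5 comparisons. Kcnb2, which encodes Kv2.2, was well above background only in male WT and female Tg, at -3.24 and -2.06, and was at least 3.17-fold higher in female Tg than in male Tg. Kcnd2 was well above background on no array.

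The 10 silent subunits form no channel alone and modify other Kv channels. None was well above background on all 4 arrays, and 6 were on none. Kcnf1 had a level of -0.41 in male WT, was not well above background in male Tg, and stood at -2.28 in male Tg E2 and -3.32 in female Tg. It was at least 9.94-fold lower in male Tg than in male WT and at least 2.72-fold higher in male Tg E2 than in male Tg. Kcns3 went the other way, undetected in male WT and female Tg and at -1.93 and -1.59 in male Tg and male Tg E2, at least 5.66-fold above male WT in male Tg and at least 2.74-fold above female Tg. Kcng4 was at least 2.43-fold higher in male Tg than in male WT, Kcng3 was well above background in female Tg only, and Kcng1 on no array.

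Of the 8 EAG, ERG and ELK genes, 5 were measured in male Tg over male WT and 1 was lower. That gene, Kcnh4, which encodes an ELK channel, had the largest drop of the potassium channel genes measured on both arrays, while Kcnf1, not well above background in male Tg, has only a bound. Its levels were 4.15 in male WT, 0.32 in male Tg, 2.38 in male Tg E2 and 1.74 in female Tg. Male Tg was 14.2-fold below male WT (difference -3.83, SE 0.21). Male Tg E2 was 4.17-fold above male Tg (difference 2.06) and female Tg 2.67-fold above it (difference 1.42), and both remained below male WT, by 3.40-fold and 5.32-fold. The calls for male Tg over male WT and for male Tg E2 and female Tg over male Tg held under every alternative that kept the 2-fold limit.

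Kcnh2, which encodes ERG1, a channel that repolarises the heart and is also found in beta cells, had levels of 1.05, 0.31, 0.87 and 0.79, with male Tg lowest but within 2-fold of male WT at -0.74. Kcnh6, which encodes ERG2, had levels of -1.04 in male WT, -1.39 in male Tg E2 and -0.80 in female Tg. It differed by -0.95 between male Tg and male WT, just inside the limit, and was 2.29-fold higher in female Tg than in male Tg. A second Kcnh6 probe, of a similar level in male WT (-1.09), passed the limit in all 3 comparisons, at -1.72 for male Tg over male WT and 1.21 and 1.10 for male Tg E2 and female Tg over male Tg. Kcnh5 and Kcnh1 were well above background in male WT, at -2.52 and -2.70, and not in male Tg, which made them at least 2.31-fold and 2.04-fold lower there.

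Kcnh4 and Kcnf1 were the genes with the deepest drop in male Tg, one measured and one by its bound, and the 250 bases before their annotated starts are shown for that reason. They come from RefSeq (build GRCm38.p6), both from the minus strand, Kcnh4 at chr11:100759779-100760028 and Kcnf1 at chr12:17176889-17177138. Capitals mark every match, on either strand, to AGGTCA, the half-site of an estrogen response element, or to TGACG, that of a cAMP response element.
Kcnh4 promoter: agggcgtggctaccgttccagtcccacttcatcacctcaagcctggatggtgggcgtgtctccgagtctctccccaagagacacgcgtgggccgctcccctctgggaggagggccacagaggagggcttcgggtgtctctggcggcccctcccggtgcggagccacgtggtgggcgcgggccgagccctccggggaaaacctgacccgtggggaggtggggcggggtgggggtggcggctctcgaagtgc
Kcnf1 promoter: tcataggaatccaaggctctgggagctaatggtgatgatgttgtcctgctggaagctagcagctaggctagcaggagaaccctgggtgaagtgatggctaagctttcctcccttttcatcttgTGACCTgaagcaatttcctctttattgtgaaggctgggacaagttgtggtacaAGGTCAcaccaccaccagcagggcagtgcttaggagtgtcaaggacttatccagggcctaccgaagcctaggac
The Kcnf1 stretch held AGGTCA 2 times, on opposite strands, and the Kcnh4 stretch held neither motif. In windows of 250 bases before to 50 after the start, AGGTCA occurred in 16.3% of all 32851 promoters and in 6 of the 96 promoters of 71 potassium channel genes (6.25%), those of Kcna10, Kcnf1, Kcnh1, Kcnip4, Kcnj16 and Kcnk10. TGACG occurred in 20.8% of all promoters and in 19 of 96 (19.8%). The full cAMP element TGACGTCA, which contains TGACG, was found in 1.79% of all promoters, and the full palindromic estrogen response element, which overlaps AGGTCA in part, in 0.0700%. Neither occurred in the 96. These counts describe letters and not bound sites.

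Kcnq1, which encodes the pore that recycles potassium in epithelia and repolarises the heart, had levels of -1.64 in male WT, 1.30 in male Tg, 0.79 in male Tg E2 and -1.08 in female Tg. Both male transgenic arrays were high and male WT and female Tg were low. Male Tg differed by 2.94 from male WT (SE 0.21), and from male Tg the male Tg E2 array differed by -0.52 and the female Tg array by -2.38, and a second, largely overlapping probe gave 2.98, -0.58 and -2.50. Kcne3, which encodes a small subunit that keeps the Kcnq1 channel open, had levels of -3.53, 0.35, -1.34 and -2.08. It was 14.7-fold higher in male Tg than in male WT (difference 3.88, SE 0.26), and 3.23-fold and 5.42-fold lower in male Tg E2 and female Tg than in male Tg. The difference of 3.88 ranged from 2.34 to 4.08 over the alternatives.

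The acinar markers had median levels of 5.03 in male WT, 9.56 in male Tg, 8.81 in male Tg E2 and 5.62 in female Tg. The 8 ductal markers, some of them not well above background, had medians of -1.40, 0.09, -0.41 and -1.58 in the same order. Both medians were higher on the arrays on which Kcnq1 was high. Between female Tg and male WT, where all 14 acinar markers were within 2-fold, Kcnq1 was within 2-fold at 0.56 and Kcne3 was 2.72-fold higher in female Tg. Which cells the Kcnq1 and Kcne3 signals came from was not tested.

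**Figure D3:**
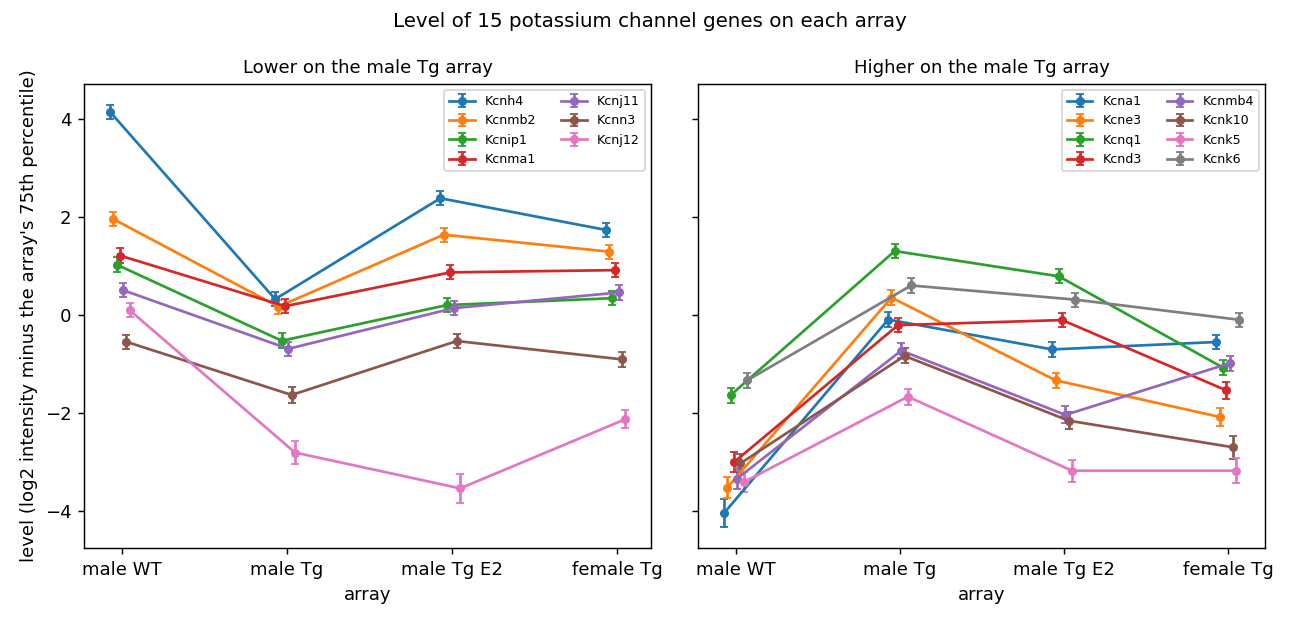
Level (log2 intensity minus the array's 75th percentile) of 15 potassium channel genes on the 4 arrays, at least 2-fold lower (left) or higher (right) on the male Tg than on the male WT array, with the SE of the scanner software's error model. Each line is 1 gene and is read across the arrays only: Kcnh4 stands at 4.15, 0.32, 2.38 and 1.74, and Kcne3 at -3.53, 0.35, -1.34 and -2.08.

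Of the 12 genes of the calcium- and sodium-activated families with their beta subunits, 8 were measured in male Tg over male WT, 2 higher and 4 lower. Kcnma1, the pore of the large-conductance BK channel, had levels of 1.21, 0.18, 0.87 and 0.91. It was 1.03 lower in male Tg than in male WT (SE 0.21), and 2 further probes gave -1.60 and -1.27. Its call was lost under 5 alternatives, at -0.83 to -0.95. Kcnmb2, which encodes the beta subunit that inactivates BK channels, had levels of 1.96 in male WT, 0.17 in male Tg, 1.64 in male Tg E2 and 1.29 in female Tg. Male Tg alone was low, 3.46-fold below male WT (difference -1.79, SE 0.21), with male Tg E2 2.77-fold and female Tg 2.18-fold above it. Kcnmb4, the neuronal beta subunit, had levels of -3.34, -0.73, -2.04 and -0.99, and was 2.61 higher in male Tg than in male WT. A second Kcnmb4 probe gave only 0.36 for the same difference, so the size of this increase depended on the probe.

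Kcnn3, which encodes the small-conductance SK3 channel, had levels of -0.55, -1.64, -0.53 and -0.91. It was 1.08 lower in male Tg than in male WT and 1.10 higher in male Tg E2 than in male Tg, and both calls were lost with normexp correction. Kcnn4, which encodes the intermediate-conductance channel of blood cells and epithelia, had levels of -1.93, -0.47, -0.67 and -0.60, and all 3 transgenic arrays were at least 2-fold above male WT. Kcnu1, which encodes the sperm channel Slo3, had levels of 1.14, -0.18, 0.64 and 0.70 and was 2.50-fold lower in male Tg than in male WT. Kcnn2, whose probe was spotted 10 times with an SD of 0.090 to 0.136 between spots, stayed within 2-fold in all 5 comparisons, and Kcnn1 was well above background on no array.

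Of the 12 auxiliary genes, 8 were measured in male Tg over male WT, 3 higher, among them Kcne3, and 1 lower. Kcnip1, which encodes a calcium-binding protein that modulates Kv4 channels, was the lower one, with levels of 1.03, -0.53, 0.20 and 0.34. Its probe was spotted 10 times with an SD of 0.030 to 0.139 between spots, which is the noise of spotting alone, and male Tg differed from male WT by -1.56 (SE 0.21). A second Kcnip1 probe had levels of -0.36, -1.99, -1.14 and -0.35, also lowest in male Tg. Kcnip3, which encodes a relative that also acts as a calcium-dependent transcriptional repressor, had levels of 1.11, 2.06, 3.69 and 2.10. Male Tg E2 stood above the other 3 arrays, 3.09-fold over male Tg (difference 1.63, SE 0.20) and 5.99-fold over male WT, while female Tg was within 2-fold of male Tg at 0.04.

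Kcnab1, a beta subunit of Kv1 channels, had levels of -3.28, -1.75, -1.30 and -2.68, and was 2.89-fold higher in male Tg than in male WT. Kcne4 had levels of -4.27, -2.82, -3.24 and -3.50, close to background, and its difference of 1.45 had an SE of 0.38. Both calls were lost with normexp correction. Kcne2 was well above background on no array.

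Several of these calls changed with the background correction. With normexp in place of the scanner software's own correction, the calls of Kcnk5, Kcnk10, Kcnmb4 and Kcnn3 between male Tg E2 and male Tg were lost, as were those of Kcnd3, Kcnh6, Kcnj11, Kcnk5, Kcnk12 and Kcnmb2 between female Tg and male Tg, all with the same sign. Adding quantile normalization to normexp also took the calls of Kcnk5, Kcnc4 and Kcnn4 between male Tg and male WT.

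The other genes differed little or were not detected. Kcnj13, Kcnk4, Kcnk13, Kcna7, Kcnh3, Kcnh8, Kcnt1, Kcnab3, Kcne1l, Kcnip4 and the noncoding Kcnq1ot1 were measured on all 4 arrays and stayed within 2-fold in all 5 comparisons, the extremes being -0.90 for Kcnh8 between male Tg E2 and male Tg, and 0.95 for Kcnq1ot1 between female Tg and male WT. Kcnk15, Kcna2, Kcnip2 and Kcnrg were well above background on some arrays only, and of these Kcnrg passed 2-fold by its bound, at least 2.09-fold lower in female Tg than in male WT. The 29 genes below that mark on every array were 6 inward rectifier genes (Kcnj1, Kcnj2, Kcnj3, Kcnj9, Kcnj14, Kcnj16), 4 two-pore genes (Kcnk2, Kcnk7, Kcnk9, Kcnk18), 3 Kv genes (Kcna3, Kcna10, Kcnd2), 6 silent subunits (Kcng1, Kcng2, Kcns1, Kcns2, Kcnv1, Kcnv2), Kcnh7, Kcnq3 and Kcnq5, 4 of the calcium- and sodium-activated families (Kcnmb1, Kcnmb3, Kcnn1, Kcnt2) and 3 auxiliary genes (Kcnab2, Kcne1, Kcne2). Not being well above background does not show that a gene is silent, since only the probes on this array were read.

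**Figure D4:**
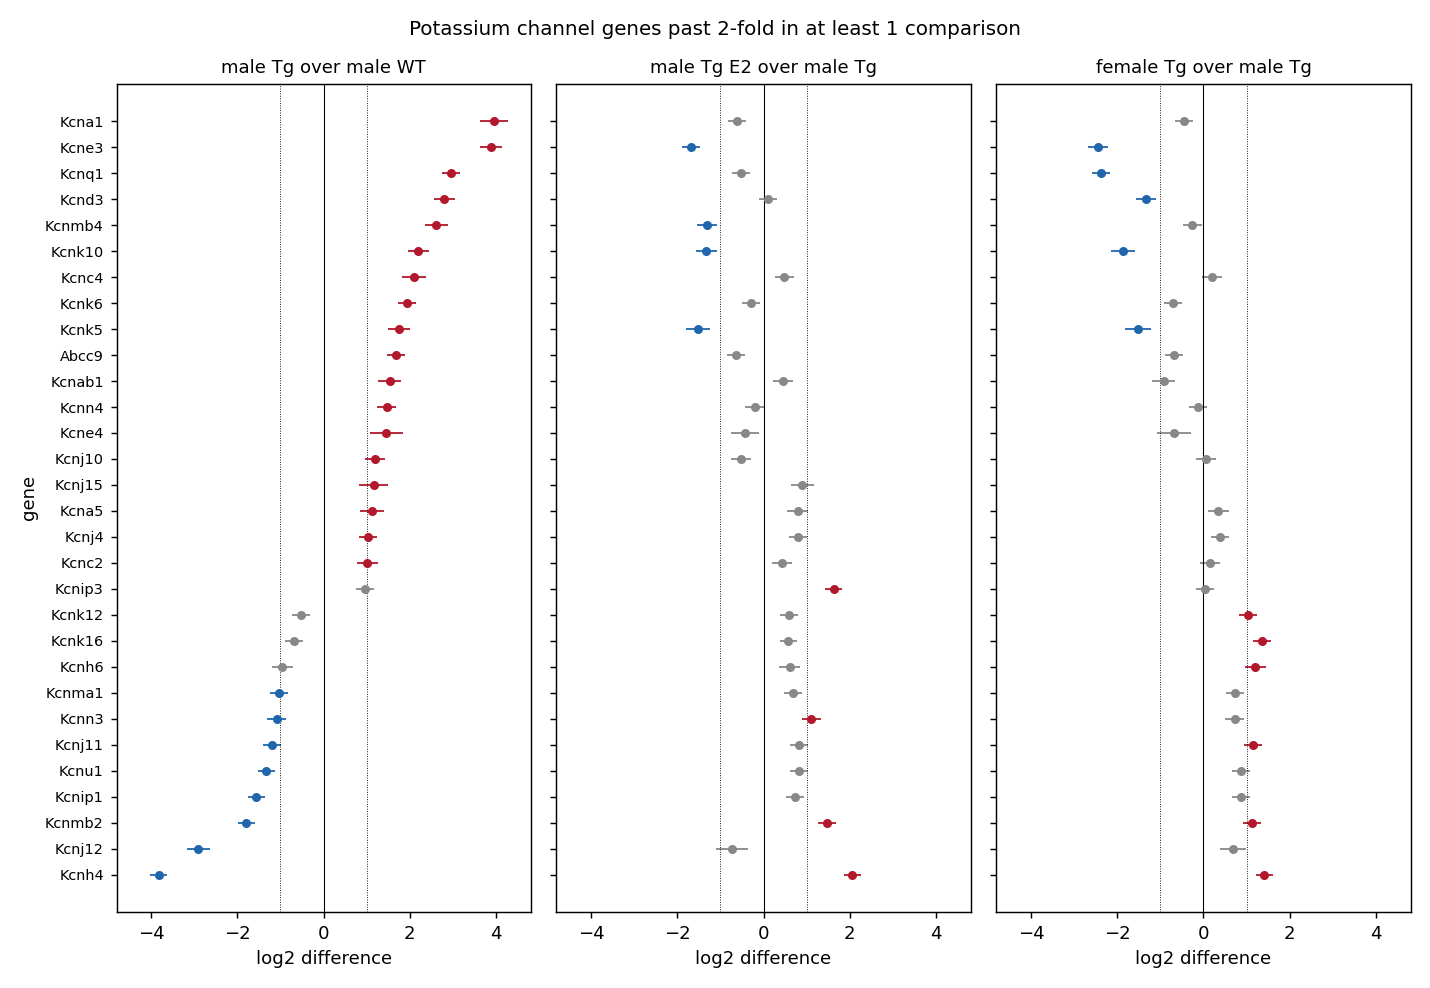
Log2 difference of 30 potassium channel genes that were at least 2-fold apart in at least 1 of 3 comparisons, measured on both arrays, with the SE of the scanner software's error model. Red points are at least 2-fold higher, blue points at least 2-fold lower, and grey points lie inside the dotted 2-fold limits: Kcna1 (3.95) and Kcne3 (3.88) top the first panel and Kcnh4 (-3.83) closes it.

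Several genes had more than 1 measured probe, which allows a check within the same arrays. In male Tg over male WT, 16 genes had at least 2 measured probes. In 3 of them another probe had the opposite sign, in 2 it differed by over 1 log2, and in 5 it lay on the other side of the 2-fold limit. The largest disagreement was Kcna6, whose brightest probe gave -0.62 and another 2.65. That other probe had levels of -1.74, 0.92, 0.42 and -0.02, and lies at chr6:126658424-126658483, apart from the brightest one at chr6:126686702-126686761 (mm9). In female Tg over male Tg, 15 could be compared and 1 differed by over 1 log2, Kcna6, at 0.21 and -0.94.

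**Figure D5:**
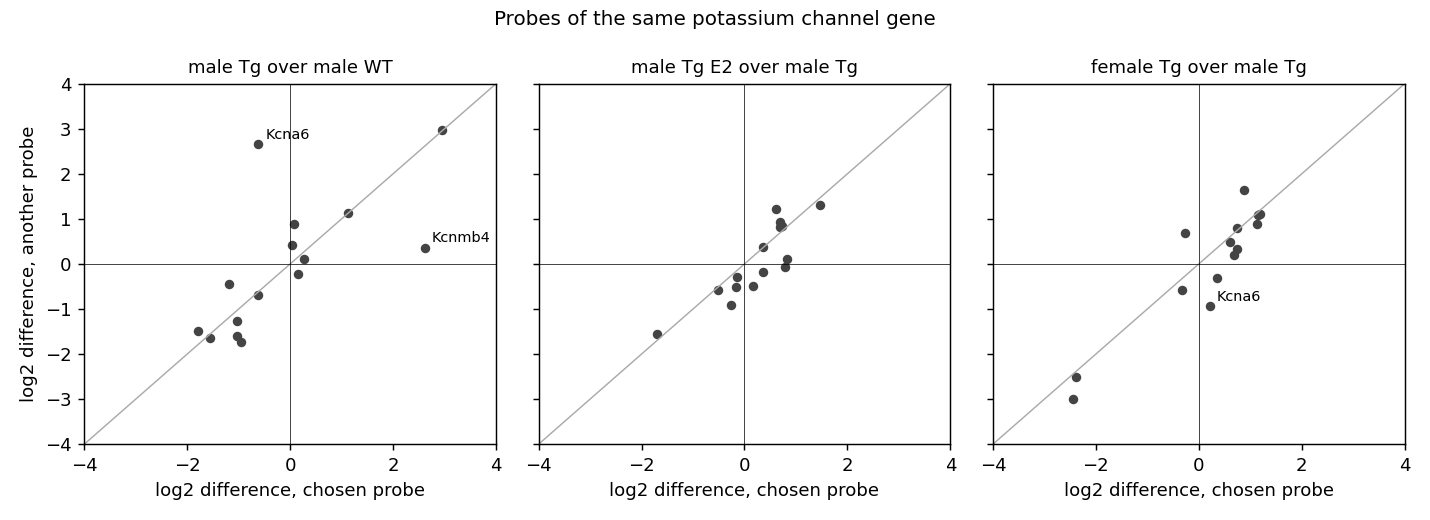
Log2 difference from the chosen probe (x) against that from another measured probe of the same potassium channel gene (y) in 3 comparisons, with the line of equality. Most points lie near the line, and the probes over 1 log2 apart are named: Kcna6 (-0.62 and 2.65) and Kcnmb4 (2.61 and 0.36) in the first panel and Kcna6 (0.21 and -0.94) in the third.

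Other genes of stimulus and secretion coupling were read from lists chosen by function, with earlier results of these data known. Of 10 measured voltage-gated calcium channel genes, 5 were at least 2-fold higher in male Tg than in male WT and 5 lower, with a median of 0.02. Of all measured genes, 15.5% were higher and 9.05% lower in that comparison. The L-type pore gene Cacna1d was lower by -1.27 and the beta subunit gene Cacnb3 by -1.38. Cacna1i, a T-type pore, was higher by 2.34 and Cacna2d2 by 2.21, the largest differences among the 10. Against male Tg, the male Tg E2 array had 1 of these 10 higher and 1 lower, and likewise the female Tg array, and Cacna1d was 1.34 higher in male Tg E2. The all-gene shares higher and lower were 2.61% and 7.92% in male Tg E2, and 3.63% and 8.43% in female Tg. Of the 8 voltage-gated sodium channel genes with a measurement, 1 was higher in male Tg than in male WT, Scn2b at 1.88, and none was lower. The other listed sodium channel genes, Scn4b, Scn2a and Scn1a, were well above background in male Tg and not in male WT. By their bounds they were at least 3.03, 1.55 and 1.39 higher in male Tg.

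Among 15 other measured channels that set the membrane potential, 3 were higher and 4 lower in male Tg than in male WT. The same all-gene shares, 15.5% higher and 9.05% lower, stand beside this and the counts below. Trpm5, a calcium-activated cation channel of beta cells, had levels of 3.22, -1.08, 1.23 and 2.35, with differences of -4.30, 2.31 and 3.43 in the 3 comparisons. Of the 6 sodium potassium ATPase genes, 1 was higher and 1 lower in male Tg than in male WT. Upstream of the KATP channel, 4 of 16 measured genes of glucose metabolism were lower in male Tg than in male WT and none was higher, among them G6pc2 (-2.69), the transporter gene Slc2a2 (-2.26) and Pcx (-2.25). G6pc2 was 2.34 higher in male Tg E2 than in male Tg, and Slc2a2 was within 2-fold of it at 0.20. Downstream, 6 of 18 exocytosis genes were lower and 1 higher in male Tg, with Sytl4 at -3.58 and Rims3 at -3.45, and both were higher than male Tg in male Tg E2, by 2.07 and 2.79, and in female Tg, by 2.51 and 1.83.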

How the data were processed

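Each of the 4 arrays held labelled RNA of 1 islet sample in 1 colour (Cy3), all on 1 slide with 1 scan time. Values are intensities on a linear scale, made by the authors with Agilent Feature Extraction and deposited as scanner output (version 10.7.1.1 per the file headers, 9.5.1.1 per the submitters' processing notes). A value table that the authors also deposited holds intensities on a linear scale whose 4 columns share a median of 25.9, and it was used as an alternative.

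Here the processed signal of unflagged spots was log2-transformed, averaged per probe, and reduced by the 75th percentile of the array's unflagged non-control spots (410 in male WT, 230 in male Tg, 337 in male Tg E2, 294 in female Tg). No spot was saturated. The scanner software's own call set what was well above background, and 1 array a group limits the precision. A bound takes the lowest level well above background on the dim array, or the gene's own level there where that is higher. Some genes not well above background lie above that lowest level, so a bound is approximate. Genes are the 22393 names in the files, of which 22266 stand in a RefSeq table (GRCm38.p6, names only), the rest having an accession there, and all 97 potassium channel names do. Probe positions are those of the files (mm9). Of the 97 genes, 41 had at least 2 probes. Alternatives were scaling, background correction with normexp (offset 50, limma 3.58.1 in R 4.3.3), the filter on dim probes, the probe rule and the fold limit. Named genes are the KATP genes, Kcnk9, channel genes known from islets, and every member past 2-fold, by value or bound, in the first 3 comparisons. From each other list at most 4 genes past 2-fold in a comparison are named, not always those with the largest difference. The members and all lists were chosen with earlier results of these data known. A few genes are counted but not reported by name here. The scripts were tested on simulated data.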

Additional observations from a re-analysis of the deposited data

How the results depend on the processing

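No paired analysis was possible because each group had 1 array, and for the same reason no replicate could be left out. No named difference past the limit reversed under any alternative, and the cause of the moves below was not tested. Of the called differences, 13 of 27 for male Tg against male WT, 4 of 8 for male Tg E2 against male Tg and 5 of 12 for female Tg against male Tg kept their call under every alternative at the 2-fold limit that gave the gene a value. Limiting the data to genes above the median level left out 6 of these 13, 1 of these 4 and 2 of these 5. Counts are given below as higher and lower, and medians as medians of the potassium channel genes. Percentages give the share of the potassium channel genes against that of all genes under the same setting. Male Tg over male WT (18, 9 and 0.20 in the report) had 11 higher under normexp (19.6% against 12.1%). With quantile normalization added, 9 were higher (16.1% against 11.1%). With no background filter the split was 33 and 15 (34.0% and 15.5% against 19.4% and 8.44%, median 0.59). Among genes above the median level, 5 of 32 were higher (15.6% against 12.2%) and 8 lower (25.0% against 9.25%), with a median of -0.0251. At a 1.5-fold limit 15 were lower (26.8% against 25.9%). At a 4-fold limit the split was 7 and 2 (12.5% and 3.57% against 6.89% and 1.16%). With the percentile of detected probes 5 were lower (8.93% against 5.46%), and also relative to the all-gene median (8.93% against 5.21%). Under median scaling the median was -0.13. Male Tg E2 over male Tg (4, 4 and 0.24) had 7 higher under median scaling (11.9% against 4.39%). Either normexp setting left 1 lower (1.69% against 5.12% and 5.24%). With no filter the split was 7 and 8 (7.22% and 8.25% against 4.14% and 10.9%, median -0.11). Among genes above the median level 0 were lower, against 5.90% of all genes. At 1.5-fold the split was 18 and 8 (30.5% and 13.6% against 11.8% and 14.0%). At 4-fold 1 was higher (1.69% against 0.28%) and 0 lower, against 1.69% of all genes. Female Tg over male Tg (7, 5 and 0.10) had 2 and 3 under normexp (3.70% and 5.56% against 1.55% and 6.07%). With quantile normalization added the split was 3 and 3 (5.56% each against 1.77% and 6.23%). With no filter it was 12 and 9 (12.4% and 9.28% against 5.05% and 11.9%). Among genes above the median level 1 was lower (3.1% against 7.52%, median 0.43). At 1.5-fold the split was 19 and 12 (35.2% and 22.2% against 14.9% and 15.1%). At 4-fold 0 were higher, against 0.14% of all genes, and 2 lower (3.70% against 3.21%). Male Tg E2 over male WT (17, 3 and 0.23) had 11 and 8 higher under the 2 normexp settings (18.6% against 5.14%, and 13.6% against 4.51%). Median scaling gave 5 lower (8.47% against 4.46%). With no filter the split was 26 and 7 (26.8% and 7.22% against 12.1% and 4.32%). Among genes above the median level it was 7 and 1 (21.9% and 3.1% against 6.87% and 2.28%, median 0.0112). At 1.5-fold 7 were lower (11.9% against 9.44%). At 4-fold the split was 7 and 1 (11.9% and 1.69% against 2.31% and 0.27%). Female Tg over male WT (15, 4 and 0.23) had 7 and 5 higher under the 2 normexp settings (11.9% against 4.797%, and 8.47% against 4.06%). With no filter the split was 26 and 7 (26.8% and 7.22% against 10.9% and 4.997%, median 0.61). Among genes above the median level it was 6 and 2 (18.75% and 6.25% against 5.59% and 3.18%). At 1.5-fold 10 were lower (16.9% against 13.3%). At 4-fold 3 were higher (5.08% against 2.18%). Reading the A930009L07Rik probe as Kcnk9 was added after seeing the data. Genes near background have the least certain differences.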
